A study of Mus musculus with 12 samples.

Results

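The step from basophilic erythroblasts (Baso) to polychromatic erythroblasts (Poly) was examined at the level of the transcriptome. It was covered by 6 of the 12 RNA sequencing libraries, 3 of Baso and 3 of Poly cells, which were chosen by their labelled stage. Genes were tested if they reached 1 FPKM (fragments per kilobase of transcript, scaled to the fragments sequenced) in at least 3 of these 6 libraries, which held for 12175 of the 29838 genes in the table. The cells of both stages came from the bone marrow of wild-type male C57BL/6 mice aged 8 weeks that carried no transgene and received no treatment by the labels. CD45-negative marrow cells were purified on magnetic beads and sorted as living, CD45-, CD11b- and GR1-negative, Ter119-positive cells, and Baso and Poly were separated on a plot of CD44 staining against forward scatter, a measure of cell size. The other 6 libraries, of proerythroblasts (Pro) and orthochromatic erythroblasts (Ortho), were used to place the step within the series. The labels give replicate numbers 1 to 3 for each stage but do not say that the libraries came from separate mice or how many mice were pooled, so p-values measure the spread between these libraries, which may be technical.

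Terminal erythropoiesis turns a proerythroblast into an enucleated reticulocyte through a few divisions in which the cells become smaller, fill with hemoglobin and condense their chromatin. Basophilic erythroblasts take their name from a cytoplasm rich in ribosomes, and in polychromatic erythroblasts hemoglobin begins to show beside it. The cells leave the cell cycle at about this point or in the next stage, and GATA1, KLF1 and their partners drive the genes of hemoglobin, heme and the red cell membrane throughout.

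The 6 libraries were similar in their totals, and the erythroid genes that define the cells were detected in both stages. The summed FPKM lay between 575516 and 605030, and between 11964 and 12182 genes reached 1 FPKM in a library. Pearson correlations of log2(FPKM + 1) across genes were 0.978 to 0.984 between libraries of a stage and 0.965 to 0.976 between the stages. All 10 erythroid identity markers were detected in both stages, with a summed FPKM of 108510 to 124450 in Baso and 112580 to 126160 in Poly. Most of this sum came from the globin genes Hba-a1 and Hbb-bs, so its overlap says little about the other markers. Of the 10 markers, 7 had a negative log2 fold change and 3 a positive one. Rhag, an ammonia channel protein of the Rh complex, and Gata1 were called lower in Poly, whereas Alas2 (the erythroid enzyme that starts heme synthesis, 1362 to 1481 FPKM in Baso and 1315 to 1479 in Poly) and Slc4a1 (band 3, adjusted p = 0.69) did not pass the test. The depth of the libraries is unknown, since FPKM values do not keep it.

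Transcripts of other blood cells were present in the sorted cells and differed between the stages, and this is given first because it touches the genes that were higher in Poly. In bulk RNA, fewer cells of a type and less RNA per cell cannot be told apart. The summed FPKM of 16 neutrophil markers was 13996 to 16432 in Baso and 18140 to 21478 in Poly, and that of 15 macrophage markers was 1833 to 2020 in Baso and 2506 to 2873 in Poly. The summed FPKM of 14 B-lineage markers was 359 to 389 in Baso and 504 to 543 in Poly. The 9 mast cell, basophil and eosinophil markers summed to 1246 to 1586 FPKM in Baso and 1700 to 1992 in Poly. None of these 4 ranges overlapped between Baso and Poly, although leukocytes carrying CD45, CD11b or GR1 had been gated out. Of the markers tested, 7 of 16 neutrophil, 5 of 8 macrophage, 8 of 14 B-lineage and 3 of 9 mast cell, basophil and eosinophil genes were called higher in Poly and none was called lower. Over all genes tested, 7.03% were called higher and 6.59% lower, so that the shares of these markers called higher lay above the background. With the replicate number as a block these counts of higher calls became 12, 5, 10 and 7, against a background of 8.62% higher and 7.03% lower under that model. In the fits that left out 1 library the counts ranged from 0 (without Baso replicate 2, Baso replicate 3, Poly replicate 1 or Poly replicate 3) to 8 (without Baso replicate 1) for the neutrophil markers, from 1 to 4 for the macrophage markers, from 1 to 6 for the B-lineage markers and from 0 to 2 (without Baso replicate 2) for the mast cell, basophil and eosinophil markers. The last count was also 0 with all 12 libraries in the model.

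S100a9, a calcium-binding protein that neutrophils hold in bulk, was present at 5303, 4283 and 4787 FPKM in Baso and at 7091, 5838 and 6831 FPKM in Poly. All Poly libraries were above all Baso libraries, and the log2 fold change was 0.46 (SE 0.10, adjusted p = 0.034). Ighm, the immunoglobulin mu chain, rose from 181, 172 and 172 FPKM to 259, 255 and 256 FPKM (log2 fold change 0.55, SE 0.05, adjusted p = 0.0046), and its call held when any 1 library was left out. Ccr2, a chemokine receptor of monocytes, rose from 20.1 to 22.0 FPKM in Baso to 30.4 to 33.2 FPKM in Poly (log2 fold change 0.58, adjusted p = 0.0075). Lyz2, the lysozyme of myeloid cells, rose by 0.50 (adjusted p = 0.015), and Ebf1, a transcription factor of early B cells, by 0.61 (adjusted p = 0.018). The neutrophil calls of S100a9, S100a8, Ltf and Retnlg were lost with all 12 libraries in the model, as was the call of Ccr2. The defining genes of tissue macrophages C1qa, C1qb, C1qc, Mrc1 and Cd163 and of T cells Cd3e, Cd3d, Cd3g and Trac did not reach the filter, and none of the 5 T and NK markers tested was called by limma, with 1 higher and 1 lower at an unadjusted p under 0.05. Of 9 megakaryocyte and platelet markers, 1 was called lower (Gp9, a platelet glycoprotein, log2 fold change -0.91, adjusted p = 0.033) and none higher. Of 5 endothelial and stromal markers, 1 was called higher (Pecam1, log2 fold change 0.47), a gene that leukocytes also use.

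**Figure D1:**
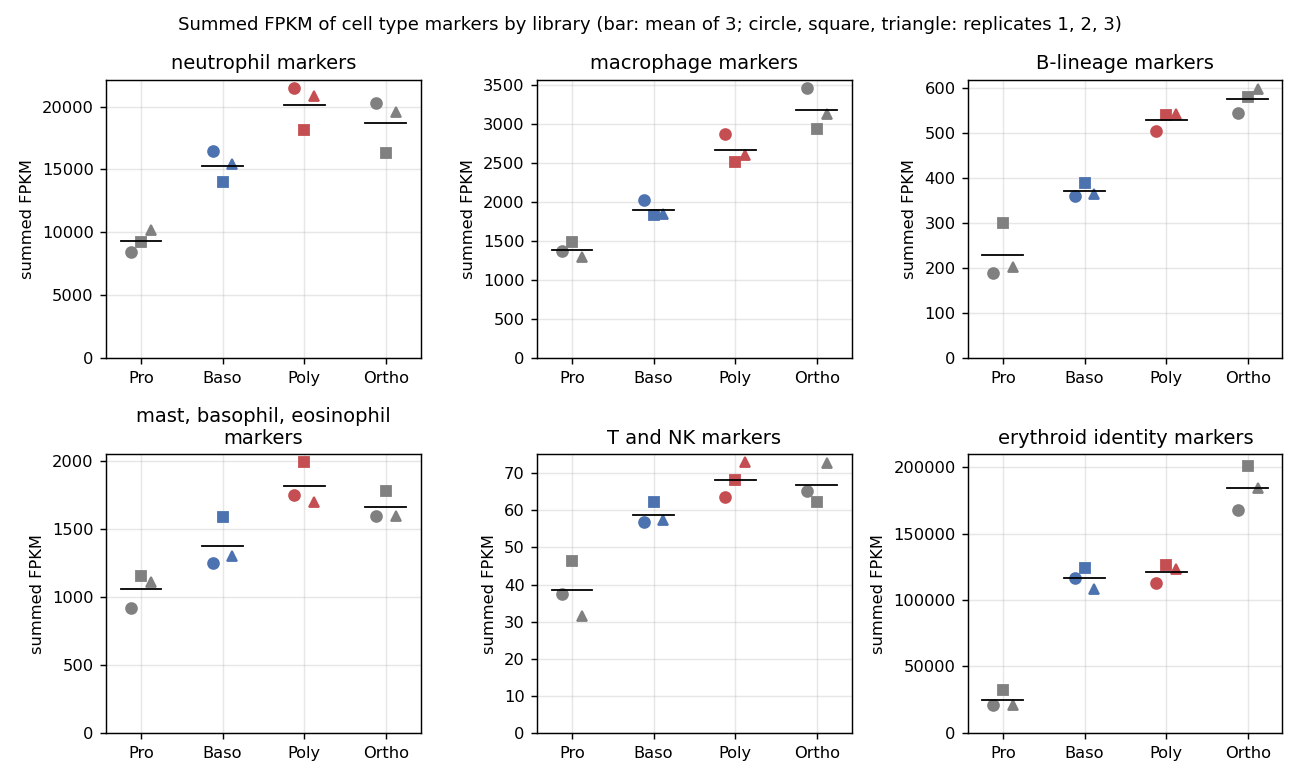
Summed FPKM of 6 marker lists (vertical axes, linear from 0) in each library of the 4 stages (horizontal axes), with horizontal bars for the mean of 3 libraries and symbols for the replicate numbers. The neutrophil, macrophage, B-lineage and mast cell, basophil and eosinophil sums of the Poly libraries all lie above those of the Baso libraries. The erythroid sums, most of which is globin, overlap.

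Between Baso and Poly 1658 genes were called at an adjusted p under 0.05 (limma, Benjamini-Hochberg), which is 13.6% of the genes tested. Of these, 856 (7.03% of the genes tested) were higher in Poly and 802 (6.59%) were lower. The counts of calls by list below are to be read against these shares. The changes were small. The median absolute log2 fold change over all genes tested was 0.19, compared with 0.42 for Baso against Pro and 0.20 for Ortho against Poly, and 64.8% of the calls had a log2 fold change of less than 0.5 in size. Only 73 genes (0.6%) were both called and changed at least 2-fold on this scale, of which 16 (0.131%) were higher in Poly and 57 (0.468%) lower. All 3 Poly libraries lay above all 3 Baso libraries in 21.2% of genes and below them in 16.4%. The share of calls that were higher in Poly depended on the scaling of the libraries: it was 51.6% as deposited, 34.2% after each library was centred on its median, 60.0% with hemoglobin genes left out and 49.2% after rescaling to the same sum. No called gene changed direction under these scalings, which the choice of called genes made likely beforehand.

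The number of calls was lower in each fit that left out 1 library. These fits hold fewer libraries and so have less power, and the part of this in the loss of calls was not tested. The number was 1492 without Baso replicate 1, but 561 without Baso replicate 2, 309 without Baso replicate 3, 350 without Poly replicate 1, 336 without Poly replicate 2 and 379 without Poly replicate 3. All 1658 called genes kept their direction in all 6 of these fits, and 229 of them were called in all 6. Over all genes these fits gave 104 to 660 higher and 205 to 832 lower calls. Without the filter on FPKM 27305 genes were tested and 591 were called, 273 higher and 318 lower. Counts of calls by list under these settings are to be read against these totals and not against those of the main fit. Genes whose calls held in all 6 fits are named as such below.

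**Figure D2:**
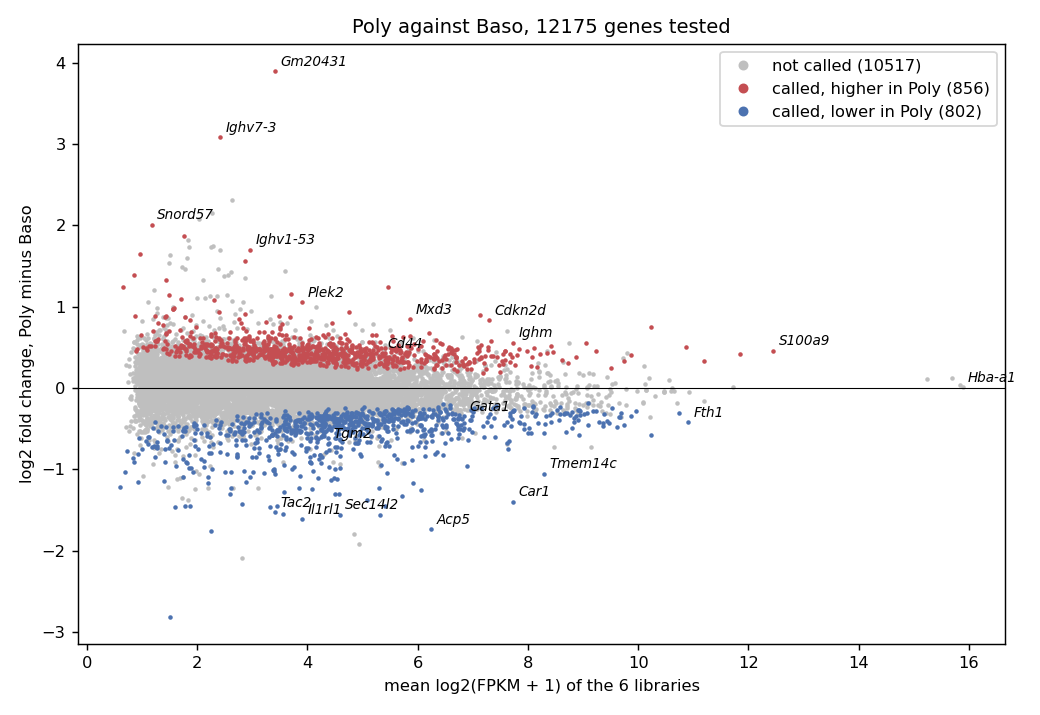
Log2 fold change of Poly minus Baso (vertical axis) against the mean log2(FPKM + 1) of the 6 libraries (horizontal axis) for the 12175 genes tested, with calls higher in Poly in red (856) and lower in blue (802). Large decreases, such as those of Acp5 (-1.74) and Il1rl1 (-1.61), reach well-expressed genes, whereas the called increases above 1.5 are Gm20431, immunoglobulin segments and 2 small RNA genes.

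Among genes with a mean of at least 10 FPKM in either stage, the leading increases held cell cycle regulators beside genes of other blood cells. Mxd3, a member of the MAX dimerization protein family that antagonizes MYC, had the smallest adjusted p of all genes. Its FPKM was 41.1, 41.9 and 44.3 in Baso and 79.5, 74.1 and 77.1 in Poly (log2 fold change 0.84, SE 0.06, adjusted p = 0.0032). Plek2, a pleckstrin family protein that binds the actin cytoskeleton of erythroblasts, was at 11.9, 8.18 and 8.44 FPKM in Baso and at 22.6, 19.2 and 19.96 in Poly (log2 fold change 1.05, SE 0.15, adjusted p = 0.0099). The libraries of the stages did not overlap for either gene, which the choice of the leading genes required, and both calls held whichever library was left out. Cdkn2d, the CDK4 and CDK6 inhibitor p19, was at 138, 97.1 and 120 FPKM in Baso and at 232, 218 and 182 in Poly (log2 fold change 0.83, SE 0.14, adjusted p = 0.017). Ubl3, a ubiquitin-like protein, rose by 0.79 (adjusted p = 0.016), and Cers6, a ceramide synthase, by 0.81 (adjusted p = 0.038). The calls of Cdkn2d, Ubl3 and Cers6 were lost without the filter on FPKM and in 3 to 5 of the fits that left out a library.

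Of the 15 largest increases, 5 were genes of the antibody system, which plasma and B cells transcribe: Ighv7-3, Ighv1-53, Ighv1-64, Ighj2 and Jchain. Ighv7-3 was listed at 0, 2.25 and 0.934 FPKM in Baso and at 37.2, 6.88 and 11.6 in Poly. It reached the filter on FPKM only with the Poly libraries, where it was high. Jchain, which joins antibody units, was at 22.3, 47.5 and 19.8 FPKM in Baso and at 80.2, 55.1 and 67.0 in Poly (log2 fold change 1.24, SE 0.31, adjusted p = 0.044). The calls of Ighv7-3, Jchain and Ighj2 were lost with the replicate number as a block. Over all immunoglobulin V, D and J segments, a set chosen after the values were seen, 116 of 268 passed the filter, 94 of these had a positive log2 fold change and 6 were called, all higher in Poly. Their summed FPKM was 1017, 682 and 744 in Baso and 1335, 931 and 1092 in Poly, so that the ranges of the stages overlapped, while Poly was higher in each of the 3 same-numbered pairs. Alox5, the leukocyte 5-lipoxygenase, rose by 0.93 (adjusted p = 0.037), Lsp1, an actin-binding protein of leukocytes, by 0.89 (adjusted p = 0.028) and Myadm, a myeloid-associated membrane protein, by 0.87 (adjusted p = 0.039). The marker sums of leukocytes given above moved with these genes, and their part in the increases was not tested.

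The largest increase, that of Gm20431 on chromosome 2, cannot be separated from a neighbour. Its exons overlap those of Ube2v1, a ubiquitin-conjugating enzyme variant, and of Tmem189 on the same strand. Gm20431 was listed at 13.5, 0 and 0.446 FPKM in Baso and at 42.8, 41.6 and 35.7 in Poly, and Ube2v1 at 73.7, 67.4 and 66.7 FPKM in Baso and at 21.3, 19.0 and 36.9 in Poly. The 2 genes thus moved in opposite directions (log2 fold changes 3.89 and -1.45), and how the reads of shared exons were divided is not known. Gm20431 also reached the filter on FPKM only with the Poly libraries, where it was high. Xiap, an inhibitor of caspases, was at 13.0, 5.54 and 6.34 FPKM in Baso and at 17.2, 19.4 and 19.2 in Poly (log2 fold change 1.16, SE 0.27, adjusted p = 0.036). Its call was lost with all 12 libraries in the model and without the filter. Exons of 39 of the 210 named genes, Mxd3 and Tgm2 among them, overlap those of a tested gene on the opposite strand, and the counting is not stated to use strand.

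**Figure D3:**
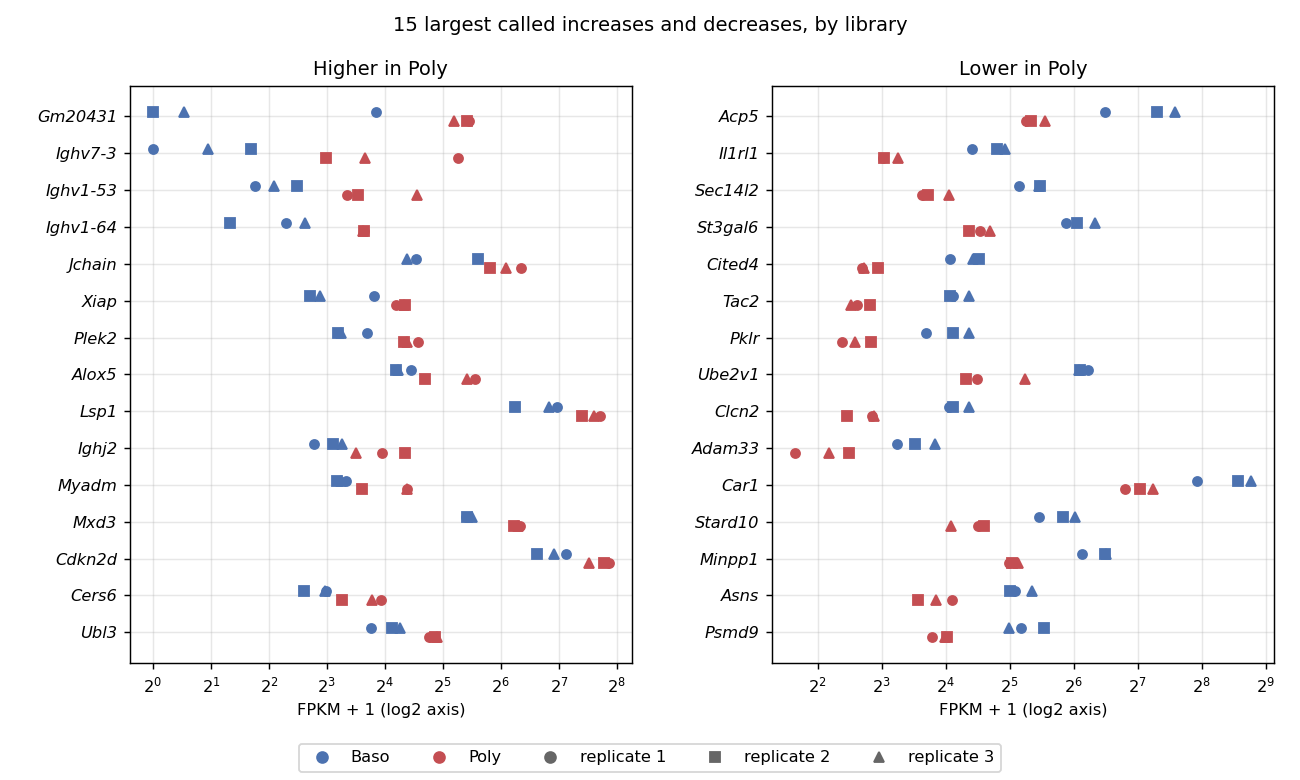
FPKM + 1 (horizontal axes, log2 scale) in each of the 6 libraries for the 15 largest called increases (left) and decreases (right) among genes with a mean of at least 10 FPKM in either stage, with Baso in blue, Poly in red and a symbol for each replicate number. The libraries of the stages do not overlap in any of the 30 genes, which the choice of the genes required, and the Baso points of Gm20431 and Ighv7-3 spread over a wide range.

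Of the 15 leading decreases 12 kept their calls whichever library was left out, against 2 of the 15 leading increases. Acp5, tartrate-resistant acid phosphatase, was at 88.5, 156 and 190 FPKM in Baso and at 37.2, 39.1 and 45.9 in Poly (log2 fold change -1.74, SE 0.26, adjusted p = 0.012). Its mean fell from 145 ± 51.6 to 40.8 ± 4.59 FPKM (SD, n = 3). Il1rl1, the receptor of interleukin 33, was at 20.2, 26.9 and 29.4 FPKM in Baso and at 7.08, 7.17 and 8.56 in Poly (log2 fold change -1.61, SE 0.15, adjusted p = 0.0046). Tac2, a precursor of tachykinin peptides, fell from 16.3, 15.7 and 19.6 to 5.10, 6.05 and 4.75 FPKM (log2 fold change -1.53, SE 0.12, adjusted p = 0.0034). In each of these genes the Poly libraries were close to each other. They were below all Baso libraries, which the choice of the leading genes required. St3gal6, a sialyltransferase, fell by 1.56 on the log2 scale (adjusted p = 0.0039), Sec14l2, a lipid transfer protein, by 1.56 (adjusted p = 0.0046), and Cited4, a transcriptional co-regulator, by 1.55 (adjusted p = 0.0046). Clcn2, a chloride channel, fell by 1.45 and Stard10, a phospholipid transfer protein, by 1.37. Car1, the carbonic anhydrase of early erythroid cells, was at 243, 378 and 437 FPKM in Baso and at 111, 130 and 150 in Poly (log2 fold change -1.40, SE 0.22, adjusted p = 0.013). Car1, Ube2v1 and Adam33, a membrane metalloprotease, were the 3 that lost their calls in at least 1 fit without a library, and these 3 and Acp5 also lost theirs without the filter on FPKM.

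The promoters of the 2 increases and the 2 decreases that led among those whose calls held in every fit without a library are shown, since these genes moved most in each direction among the leading genes whose calls were that steady. The windows run from 250 bases before to 50 bases after a start of the gene and come from RefSeq on build GRCm38.p6. Plek2 is at chr12:78906889-78907188 on the minus strand and Mxd3 at chr13:55329682-55329981 on the minus strand. For Acp5 the first of 3 windows is shown, chr9:22135697-22135996 on the minus strand, and for Il1rl1 the first of 2, chr1:40429320-40429619 on the plus strand. Capitals mark the letters GGCGGGAA, the core of an E2F-like motif, or AGATAA, which the GATA factors bind, on either strand.
Plek2: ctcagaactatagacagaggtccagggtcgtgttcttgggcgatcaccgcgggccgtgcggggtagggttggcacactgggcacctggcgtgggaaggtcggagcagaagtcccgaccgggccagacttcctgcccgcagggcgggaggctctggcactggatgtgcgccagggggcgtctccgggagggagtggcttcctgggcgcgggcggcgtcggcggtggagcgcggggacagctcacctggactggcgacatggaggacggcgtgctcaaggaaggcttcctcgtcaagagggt
Mxd3: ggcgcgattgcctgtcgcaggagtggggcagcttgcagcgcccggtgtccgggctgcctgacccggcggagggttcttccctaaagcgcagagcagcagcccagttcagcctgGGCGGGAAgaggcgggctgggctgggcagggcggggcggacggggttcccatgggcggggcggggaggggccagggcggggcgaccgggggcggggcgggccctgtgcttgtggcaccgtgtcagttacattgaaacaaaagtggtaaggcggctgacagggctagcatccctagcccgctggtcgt
Acp5: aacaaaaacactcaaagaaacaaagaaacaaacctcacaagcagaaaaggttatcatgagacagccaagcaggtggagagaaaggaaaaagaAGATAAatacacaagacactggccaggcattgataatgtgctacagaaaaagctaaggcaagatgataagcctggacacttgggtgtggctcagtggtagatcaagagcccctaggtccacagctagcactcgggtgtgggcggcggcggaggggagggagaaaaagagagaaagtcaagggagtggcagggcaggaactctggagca
Il1rl1: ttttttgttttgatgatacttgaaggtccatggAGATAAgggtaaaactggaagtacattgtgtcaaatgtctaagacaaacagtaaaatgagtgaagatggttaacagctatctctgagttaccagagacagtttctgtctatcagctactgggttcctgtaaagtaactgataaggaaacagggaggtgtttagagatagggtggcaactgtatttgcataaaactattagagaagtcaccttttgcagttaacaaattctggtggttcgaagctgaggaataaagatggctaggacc
The E2F-like letters occurred once in the Mxd3 window, and the GATA letters once in the Acp5 and once in the Il1rl1 window shown. The Plek2 window held neither. The second Il1rl1 window also held the GATA letters once, and the other windows of Acp5 did not. Over 10874 windows of 8553 tested genes, the E2F-like letters were present in 4.16%, in 1.9% of the windows of genes called higher and in 3.86% of those of genes called lower. The GATA letters were present in 6.71% of all windows, in 8.18% for genes called higher and in 10.9% for genes called lower. These are matches of letters and not sites of binding.

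Hemoglobin transcripts did not change detectably in share over this step. The globin genes made up 35.1% ± 1.79 of the summed FPKM in Baso and 36.6% ± 1.56 in Poly (SD, n = 3 each), a difference of 1.49 percentage points (exact permutation test, two-sided, p = 0.3, where 3 against 3 libraries cannot give less than 0.1). The difference was 0.528 without Baso replicate 3, 0.985 without Poly replicate 2, 2.29 without Baso replicate 2 and 2.39 without Poly replicate 1. None of the 6 globin genes tested was called by limma, and 0 of them had an unadjusted p under 0.05. Hba-a1 was at 60476, 63340 and 57123 FPKM in Baso and at 56465, 62517 and 63324 in Poly, and Hbb-bs at 50530, 56061 and 46346 in Baso and at 51261, 58731 and 55515 in Poly. The libraries of the stages overlapped for both. The near-identical copies Hba-a1 and Hba-a2, and Hbb-bs and Hbb-bt, share reads, so the split within each pair is uncertain.

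Of 19 genes that make and carry heme, 11 were called lower and none higher, and 8 were not called, with a median log2 fold change of -0.27 against 0.03 over all genes tested. Tmem14c, which moves a heme precursor across the inner mitochondrial membrane, was at 397, 484 and 473 FPKM in Baso and at 208, 218 and 221 in Poly (log2 fold change -1.06, SE 0.08, adjusted p = 0.0034). Alad, the enzyme of the second step of heme synthesis, was at 365, 391 and 385 FPKM in Baso and at 258, 257 and 259 in Poly (log2 fold change -0.56, SE 0.05, adjusted p = 0.0046). Poly was below Baso in all libraries for both genes, and both calls held whichever library was left out. Uros, the uroporphyrinogen synthase, fell by 0.68 (adjusted p = 0.019) and Blvrb, a biliverdin reductase, by 0.55 (adjusted p = 0.0051). Cpox, Ppox, Urod, Slc25a38, Abcb6 and Abcb10 were also called lower, with log2 fold changes between -0.23 and -0.47. The count of lower calls was 5 to 13 under the other settings (5 without the filter on FPKM) and 5 to 9 in the fits without 1 library. Over all genes 318 were called lower without the filter and 205 to 832 in the fits without 1 library.

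Of 21 genes of iron handling 5 were called lower and none higher (median log2 fold change -0.16). Tfr2, a sensor of transferrin, was at 19.8, 24.3 and 22.6 FPKM in Baso and at 13.0, 11.5 and 11.6 in Poly (log2 fold change -0.83, SE 0.10, adjusted p = 0.0071). Tfrc, the transferrin receptor CD71, was at 559, 482 and 516 FPKM in Baso and at 385, 409 and 411 in Poly (log2 fold change -0.37, SE 0.07, adjusted p = 0.02). Fth1, the ferritin heavy chain, fell from 2165, 2267 and 2233 to 1748, 1596 and 1634 FPKM (log2 fold change -0.42, SE 0.06, adjusted p = 0.0088). Both receptors and the storage protein were thus lower in all Poly libraries. Glrx5 and Nfs1, which take part in iron-sulfur cluster assembly, fell by 0.38 and 0.52. The calls of Tfr2, Fth1 and Glrx5 held in all fits without 1 library, and those of Tfrc and Nfs1 in 2 and 1 of the 6.

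Of 21 genes for blood group and surface proteins 11 were called lower, none was called higher and 10 were not called, with a median of -0.33. Cd59a, an inhibitor of complement, was at 11.5, 11.8 and 13.9 FPKM in Baso and at 4.75, 5.48 and 6.30 in Poly (log2 fold change -1.04, SE 0.12, adjusted p = 0.0066). Smim1, the carrier of the Vel blood group, was at 21.8, 21.3 and 27.9 FPKM in Baso and at 10.6, 10.3 and 12.4 in Poly (log2 fold change -1.02, SE 0.12, adjusted p = 0.0075). Xk, the protein that carries the Kx antigen, fell by 0.72 (adjusted p = 0.0075), Rhag by 0.51 (adjusted p = 0.0049) and Kel, the Kell antigen, by 0.35. These were decreases in all libraries, and the calls of Cd59a, Smim1, Xk and Rhag held whichever library was left out. The call of Ackr1, the Duffy antigen, was lost with the replicate number as a block. The membrane skeleton moved less, with 2 of 17 members higher (Add3 and Dstn, log2 fold changes 0.37 and 0.36) and 2 lower (Add2 and Mpp1, both -0.40). Add2 and Add3 encode the beta and gamma adducins, which cap actin filaments.

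Of 28 erythroid transcription factors and partners, 4 (14.3%) were called lower and 2 (7.14%) higher, against 6.59% and 7.03% of all genes tested. Lmo2, the bridging protein of the GATA1 and TAL1 complex, was at 245, 259 and 240 FPKM in Baso and at 154, 165 and 146 in Poly (log2 fold change -0.67, SE 0.06, adjusted p = 0.0049), and its call held whichever library was left out. Ldb1, its dimerizing partner, fell from 77.1, 93.7 and 98.9 to 61.7, 63.9 and 61.03 FPKM (log2 fold change -0.52, adjusted p = 0.021). Gata1 was at 117, 132 and 135 FPKM in Baso and at 97.1, 101 and 102 in Poly (log2 fold change -0.35, SE 0.07, adjusted p = 0.025). The members of this complex that were called, Lmo2, Ldb1 and Gata1, were lower in Poly, which says nothing of its members that were not called. Over the 28 genes of the list 16 log2 fold changes were positive and 12 negative (median 0.03). Ikzf1, Ikaros, fell by 0.28. The 2 members called higher, Spi1 (PU.1, log2 fold change 0.34) and Myb (0.33), also act in leukocytes and progenitors. The leukocyte marker sums moved with them, and the part of leukocytes in these increases was not tested. The calls of Gata1, Ldb1, Spi1 and Myb were lost without the filter and held in at most 1 of the fits without 1 library.

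Of 15 genes that the study names in its own experiments, 4 were called lower and 1 higher. The study picked Tgm2, the transglutaminase that crosslinks proteins, in part by predicting upstream regulators from genes that differed from Pro in these libraries. It also predicted Tgm2 from human erythroblasts and found it high in erythroblasts of public mouse data. In fetal liver it reported more Tgm2 RNA in Ter119-positive than in Ter119-negative cells, and protein that rose during culture. Those comparisons cover other cells and intervals than Baso against Poly. The values here come from the libraries of the mouse prediction and are not independent evidence. Tgm2 was at 23.2, 24.97 and 27.5 FPKM in Baso and at 14.5, 15.1 and 16.1 in Poly (log2 fold change -0.69, SE 0.09, adjusted p = 0.008). Its mean was 25.2 ± 2.18 FPKM in Baso and 15.3 ± 0.81 in Poly (SD, n = 3), the libraries did not overlap, and the call held whichever library was left out. E2f4, an E2F factor that acts mainly as a repressor, fell from 221, 236 and 246 to 189, 197 and 192 FPKM (log2 fold change -0.28, SE 0.06, adjusted p = 0.027). Klf1, the erythroid Krüppel-like factor, was at 325, 351 and 342 FPKM in Baso and at 284, 282 and 310 in Poly (log2 fold change -0.22, adjusted p = 0.057), which did not pass the test although the libraries did not overlap, and passed it after centring on the median and with a filter of a mean of at least 5 FPKM. Gata2, Klf11, E2f8, Ccnd2, Ccne1, Cdkn1a and Gadd45a did not pass it, with log2 fold changes between -0.22 and 0.46.

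Cd44 was the listed gene called higher, at 37.1, 32.0 and 34.2 FPKM in Baso and at 51.3, 43.5 and 44.9 in Poly (log2 fold change 0.42, SE 0.09, adjusted p = 0.028), and CD44 staining was used in the gates. Cd44 is also carried by leukocytes, whose marker sums rose beside it, and the part of these in the difference was not tested. Its call was lost with all 12 libraries in the model and without the filter. Of 13 genes for antigens stained in the sort or for other adhesion and stage antigens, 4 were called higher and 2 lower. Ptprc, which encodes CD45, was at 43.4, 33.1 and 36.7 FPKM in Baso and at 54.8, 49.1 and 54.9 in Poly (log2 fold change 0.49, adjusted p = 0.032), and Ly6g, a GR1 antigen, rose by 0.43. Both mark cells that the sort was meant to remove. Itgal, an integrin of leukocytes, rose by 0.35, and Itga4 and Tfrc were lower (-0.39 and -0.37). The call of Itga4, an integrin subunit of erythroblasts, was lost with the replicate block.

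Of 57 DNA replication genes, 27 were called lower and none higher, with a median log2 fold change of -0.34. Cdt1, which licenses origins of replication, was at 57.2, 63.4 and 66.6 FPKM in Baso and at 38.1, 32.7 and 33.5 in Poly (log2 fold change -0.83, SE 0.09, adjusted p = 0.0052). Gins1, a subunit of the replicative helicase complex, was at 36.0, 39.6 and 44.8 FPKM in Baso and at 22.1, 22.2 and 22.9 in Poly (log2 fold change -0.81, SE 0.09, adjusted p = 0.0057). Both calls held whichever library was left out. The MCM helicase subunits Mcm2, Mcm3, Mcm4, Mcm5, Mcm6 and Mcm7 were all called lower, with log2 fold changes between -0.50 and -0.72, and Pcna, the sliding clamp, fell by 0.34. Fen1, the flap endonuclease, was at 93.7, 105 and 111 FPKM in Baso and at 31.0, 70.4 and 34.8 in Poly (log2 fold change -1.26, SE 0.28, adjusted p = 0.033), so that Poly replicate 2 lay nearer to Baso than the others. The count of lower calls was 13 without the filter and up to 32 under the other settings, and 10 (without Poly replicate 2) to 27 (without Baso replicate 1) in the fits without 1 library.

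Of 49 mitotic genes 8 were called lower and 2 higher (median -0.09). Ccnb2 and Ccnb1, the B-type cyclins, fell from 300, 314 and 307 to 218, 220 and 218 FPKM and from 120, 116 and 129 to 88.7, 88.9 and 89.4 FPKM (log2 fold changes -0.49 and -0.44, adjusted p = 0.0049 and 0.0093). Cenpa, the centromeric histone, fell by 0.60 (adjusted p = 0.0047) and Cdc20, an activator of the anaphase-promoting complex, by 0.54 (adjusted p = 0.0052). These 4 calls held whichever library was left out. Aurkb, a kinase of the chromosomal passenger complex, was at 90.2, 101 and 107 FPKM in Baso and at 125, 126 and 123 in Poly (log2 fold change 0.33, adjusted p = 0.034), and Ncapd3, a condensin II subunit, rose by 0.32. The shares of the mitotic list were 16.3% lower and 4.08% higher, against 6.59% and 7.03% of all genes tested. The share called higher thus lay below that over all genes. The count of higher calls was 4 without Baso replicate 1 and 0 without any other single library.

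Of 33 regulators of the G1 to S transition 3 were called higher and 2 lower, shares close to the 7.03% and 6.59% over all genes tested. E2f7, a repressor of the E2F family, was at 7.67, 7.92 and 7.84 FPKM in Baso and at 13.6, 12.9 and 14.0 in Poly (log2 fold change 0.72, SE 0.08, adjusted p = 0.0052), a call that held whichever library was left out. Ccne2, cyclin E2, rose from 26.6, 29.3 and 32.0 to 47.6, 41.4 and 50.1 FPKM (log2 fold change 0.64, SE 0.10, adjusted p = 0.013), and its call held in 5 of those 6 fits. Cdkn2d was the third. Ccnd3, cyclin D3, which sets the number of erythroid divisions, fell from 224, 270 and 280 to 143, 158 and 154 FPKM (log2 fold change -0.76, SE 0.09, adjusted p = 0.0077), again in every fit. The other member called lower was E2f4.

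Of 57 clustered histone genes, which are transcribed in S phase and are near-identical in sequence, 2 were called higher (Hist1h2bg and Hist3h2a, log2 fold changes 0.50 and 0.47) and 1 lower (Hist1h3e, -0.47, lost with the replicate block). Both shares lay below those over all genes tested, 7.03% higher and 6.59% lower. The summed FPKM of the clustered histone genes was 1918, 2159 and 2325 in Baso and 1078, 1709 and 1911 in Poly, lower in all Poly libraries, and the sum was not tested. Of 8 histone variants, H2afx rose from 386, 428 and 422 to 534, 534 and 540 FPKM (log2 fold change 0.38, SE 0.06, adjusted p = 0.013). Of 25 chromatin modifiers, Hdac6 was called higher (0.38, lost with the replicate block) and Dnmt1, the maintenance DNA methyltransferase, lower (-0.32). In the nuclear envelope list of 17, Lmna, which encodes lamins A and C, fell from 112, 105 and 134 to 65.9, 65.0 and 65.6 FPKM (log2 fold change -0.82, SE 0.09, adjusted p = 0.006), while Tmpo, a lamina-associated protein, rose from 177, 186 and 187 to 238, 240 and 234 FPKM (log2 fold change 0.38, SE 0.05, adjusted p = 0.0093). Both calls held whichever library was left out. Tor1aip2 was the other member called lower, and its call was lost with the replicate block. Exportins and importins gave 1 higher call (Kpna4, 0.29) and 1 lower call (Tnpo2, -0.46) among 25 genes, and 1 of 25 nuclear pore genes was called lower (Aaas, -0.43). No share called in the exportin, nuclear pore and chromatin modifier lists was above 4%, which is below the shares over all genes tested.

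Of 82 cytosolic ribosomal protein genes, 37 were called lower and none higher, 81 had a negative log2 fold change, and the median was -0.28. Rps2 was at 556, 649 and 583 FPKM in Baso and at 401, 382 and 413 in Poly (log2 fold change -0.58, SE 0.07, adjusted p = 0.0076), which held whichever library was left out. Rplp1, a protein of the ribosomal stalk, fell from 1248, 1626 and 1542 to 932, 1022 and 990 FPKM (log2 fold change -0.58, adjusted p = 0.018). The count of calls was the least steady of all lists: it was 51 with the replicate block, 58 without Baso replicate 1, 2 or 3 without any other single library, and 1 without the filter. These genes have many pseudogene copies with which reads can be shared. None of 58 ribosome biogenesis genes was called by limma, 2 were higher and 8 lower at an unadjusted p under 0.05, and up to 3 were called lower under the other settings. Npm1, nucleophosmin, was at 169, 171 and 162 FPKM in Baso and at 181, 159 and 150 in Poly.

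Of 35 aminoacyl-tRNA synthetases 9 were called lower and none higher (median -0.21), and Hars, the histidyl-tRNA synthetase, fell from 75.5, 82.3 and 84.1 to 42.2, 41.1 and 46.2 FPKM (log2 fold change -0.89, SE 0.07, adjusted p = 0.0037) in every fit without 1 library. Yars, the tyrosyl-tRNA synthetase, fell by 0.72 (adjusted p = 0.013). The count for the synthetases was 1 (without Poly replicate 2) to 9 (without Baso replicate 1) in these fits. Of 55 translation factors 9 were called lower and 1 higher (Eif1a), and the count of lower calls was 0 (without Baso replicate 3, Poly replicate 2 or Poly replicate 3) to 16 (without Baso replicate 1). Of 61 splicing factors 3 were called lower, against 6.59% of all genes tested (Snrpd3, Snrpc and Snrpg, log2 fold changes between -0.28 and -0.34). That count was 10 without Baso replicate 1, 0 without any of the other 5 libraries and 14 after centring on the median. The call of Snrpc was lost with the replicate block. Among 27 chaperones Hsph1 (-0.52) and Tcp1 (-0.26) were called lower. None of 17 nucleotide synthesis genes was called by limma, with 1 higher and 2 lower at an unadjusted p under 0.05. Asns, asparagine synthetase, a target of the integrated stress response, fell from 32.9, 31.2 and 39.9 to 16.1, 10.9 and 13.4 FPKM (log2 fold change -1.31, SE 0.15, adjusted p = 0.0066). With Sesn2 (-0.58) it was 1 of 2 members called lower among 16 genes of that response.

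Part of the nuclear genes of mitochondria were lower in Poly. Of 89 nuclear genes of the respiratory chain 29 were called lower and none higher (median -0.25), and of 80 mitochondrial ribosomal protein genes 9 were called lower and none higher (median -0.15), with 22 of the 80 positive. Ndufb9, a subunit of complex I, was at 124, 126 and 127 FPKM in Baso and at 87.3, 89.6 and 87.2 in Poly (log2 fold change -0.51, SE 0.05, adjusted p = 0.0049), and held in every fit without 1 library. Cox6b2, a subunit of complex IV, fell by 0.95 (adjusted p = 0.018), and Mrpl22, of the large mitochondrial ribosomal subunit, by 0.54 (adjusted p = 0.013). None of the 13 respiratory chain genes of the mitochondrial genome was called by limma, 1 was higher and 0 lower at an unadjusted p under 0.05, and their log2 fold changes lay between -0.09 and 0.12. In this group mt-Co1 was at 3307, 3256 and 3574 FPKM in Baso and at 3450, 3288 and 3441 in Poly. Of all 34 genes of the mitochondrial genome tested, 3 were called higher and none lower, namely the ribosomal RNAs mt-Rnr1 (log2 fold change 0.25) and mt-Rnr2 (0.33) and the tRNA gene mt-Tg (0.61). The nuclear respiratory count was 14 with all 12 libraries in the model, 44 after centring on the median, 7 without the filter, and 3 (without Baso replicate 3 or Poly replicate 2) to 37 (without Baso replicate 1) in the fits without 1 library. The mitochondrial ribosomal count was 0 (without Baso replicate 3 or Poly replicate 2) to 8 (without Baso replicate 1).

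Of 21 glycolytic genes 4 were called lower and 7 higher. Pklr, the pyruvate kinase of liver and red cells, was at 11.96, 16.4 and 19.5 FPKM in Baso and at 4.18, 6.12 and 4.97 in Poly (log2 fold change -1.46, SE 0.19, adjusted p = 0.0087), and Pfkm, the muscle type of phosphofructokinase that red cells use, was at 18.6, 22.8 and 22.3 FPKM in Baso and at 7.34, 8.84 and 9.14 in Poly (log2 fold change -1.24, SE 0.11, adjusted p = 0.0047). Minpp1, an inositol phosphatase that also acts on 2,3-bisphosphoglycerate, fell by 1.32 (adjusted p = 0.0037) and Hk1, the hexokinase of red cells, by 0.46 (adjusted p = 0.0066). All 4 decreases held whichever library was left out. The 7 genes called higher, named after their values were seen, were Gpi1, Pgam1, Pkm, Aldoa, Eno1, Pgk1 and Ldha, with log2 fold changes between 0.21 and 0.42. Pkm, the pyruvate kinase of most other tissues, was at 191, 186 and 171 FPKM in Baso and at 249, 208 and 227 in Poly. The calls of the increases were less steady: 1 to 4 of them were called in the fits without 1 library and 2 with all 12 libraries. Leukocytes also use these enzymes, and their marker sums moved in the same direction, but the part of leukocytes in these increases was not tested.

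Of 25 antioxidant genes 6 were called lower and 5 higher. Prdx3, the mitochondrial peroxiredoxin, fell from 103, 99.0 and 119 to 59.9, 62.4 and 62.2 FPKM (log2 fold change -0.79, SE 0.08, adjusted p = 0.0051). Txnrd2, the mitochondrial thioredoxin reductase, fell from 87.2, 83.4 and 83.0 to 58.0, 54.5 and 58.1 FPKM (log2 fold change -0.56, SE 0.06, adjusted p = 0.0051), and Gss, glutathione synthetase, by 0.64 (adjusted p = 0.0093). These held in every fit without 1 library. The 5 increases (Prdx5, Srxn1, Gsr, Glrx and Pgd, log2 fold changes between 0.28 and 0.40) were lost in the fit without the filter, and 0 or 1 of them were called when a library was left out.

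Psmd9, a chaperone of proteasome assembly, was at 35.1, 45.5 and 30.8 FPKM in Baso and at 12.7, 15.2 and 14.8 in Poly (log2 fold change -1.31, SE 0.15, adjusted p = 0.006), a call that held whichever library was left out. In all 9 of 48 proteasome genes were called lower and 1 higher (Psme2b, 0.56, whose exons overlap another gene called higher). Of 26 ubiquitin genes of erythroid maturation 4 were called lower and none higher. Fbxo7, an F-box protein tied to mitophagy, fell from 84.7, 83.3 and 76.3 to 52.7, 53.1 and 47.7 FPKM (log2 fold change -0.66, SE 0.07, adjusted p = 0.0057), and Ubac1, a ubiquitin-associated domain protein, from 365, 383 and 353 to 265, 267 and 280 FPKM (log2 fold change -0.44, SE 0.06, adjusted p = 0.008). Of 32 autophagy and mitophagy genes 5 were called lower, among them Atg4b (-0.50), Wipi2 (-0.44) and Wipi1 (-0.41), and Bnip3, a mitophagy receptor, was called higher (0.56). Of 22 apoptosis genes Casp9 (-0.53) and Casp2 (-0.52) were called lower and Xiap higher.

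Of 20 cytoskeletal genes of cytokinesis and enucleation 10 were called higher and 1 lower (median 0.21). Rock2, a kinase that activates myosin, was at 10.8, 8.88 and 10.2 FPKM in Baso and at 14.2, 13.8 and 14.0 in Poly (log2 fold change 0.46, SE 0.09, adjusted p = 0.023). Actg1, cytoplasmic gamma-actin, rose from 369, 338 and 335 to 465, 426 and 434 FPKM (log2 fold change 0.35, SE 0.06, adjusted p = 0.019), and Diaph1, a formin, by 0.32 (adjusted p = 0.033). Myh10, a nonmuscle myosin, fell by 0.38 (adjusted p = 0.026), and Myh9, another, rose by 0.29. Vim and Rac2, which were also called higher (log2 fold changes 0.32 and 0.24), are strongly transcribed in leukocytes. Of 38 lysosomal genes 8 were called higher and none lower (median 0.15). Ctsh and Ctss, cathepsins that leukocytes also carry, rose by 0.63 and 0.41. The sum of the macrophage marker list, 1833 to 2020 FPKM in Baso and 2506 to 2873 in Poly, moved with both lists. Of its 15 genes 7 did not reach the filter, nor did the defining genes of tissue macrophages named above. The sum therefore does not show macrophages as its source, and its part in both lists was not tested. The cytokinesis count was 0 to 5 in the fits without 1 library and 2 without the filter, and the lysosomal count 1 to 7 and 1. Of 17 tubulins Tuba8 was called higher (0.39) and Tubb2a lower (-0.46).

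Signalling through EPO and KIT gave 3 calls among 19 genes. The shares were 5.26% higher and 10.5% lower, near the 7.03% and 6.59% over all genes tested. Cish, a feedback inhibitor induced by STAT5, was at 4.89, 2.86 and 3.99 FPKM in Baso and at 1.81, 1.89 and 1.04 in Poly (log2 fold change -0.93, SE 0.20, adjusted p = 0.031). Gab1, a docking adaptor, fell from 6.65, 8.17 and 8.95 to 3.68, 3.84 and 4.29 FPKM (log2 fold change -0.85, SE 0.12, adjusted p = 0.012) in every fit without 1 library. Lyn, a SRC family kinase also found in leukocytes, rose from 27.1, 26.4 and 27.2 to 35.0, 39.7 and 37.0 FPKM (log2 fold change 0.45, SE 0.07, adjusted p = 0.013). Epor, the EPO receptor, did not pass the test (log2 fold change 0.11, adjusted p = 0.33), nor did Kit, the receptor of stem cell factor (0.27, adjusted p = 0.2). Of 9 progenitor markers Flt3 (0.48) and Myb were called higher, and their summed FPKM was 117 to 129 in Baso and 146 to 177 in Poly.

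**Figure D4:**
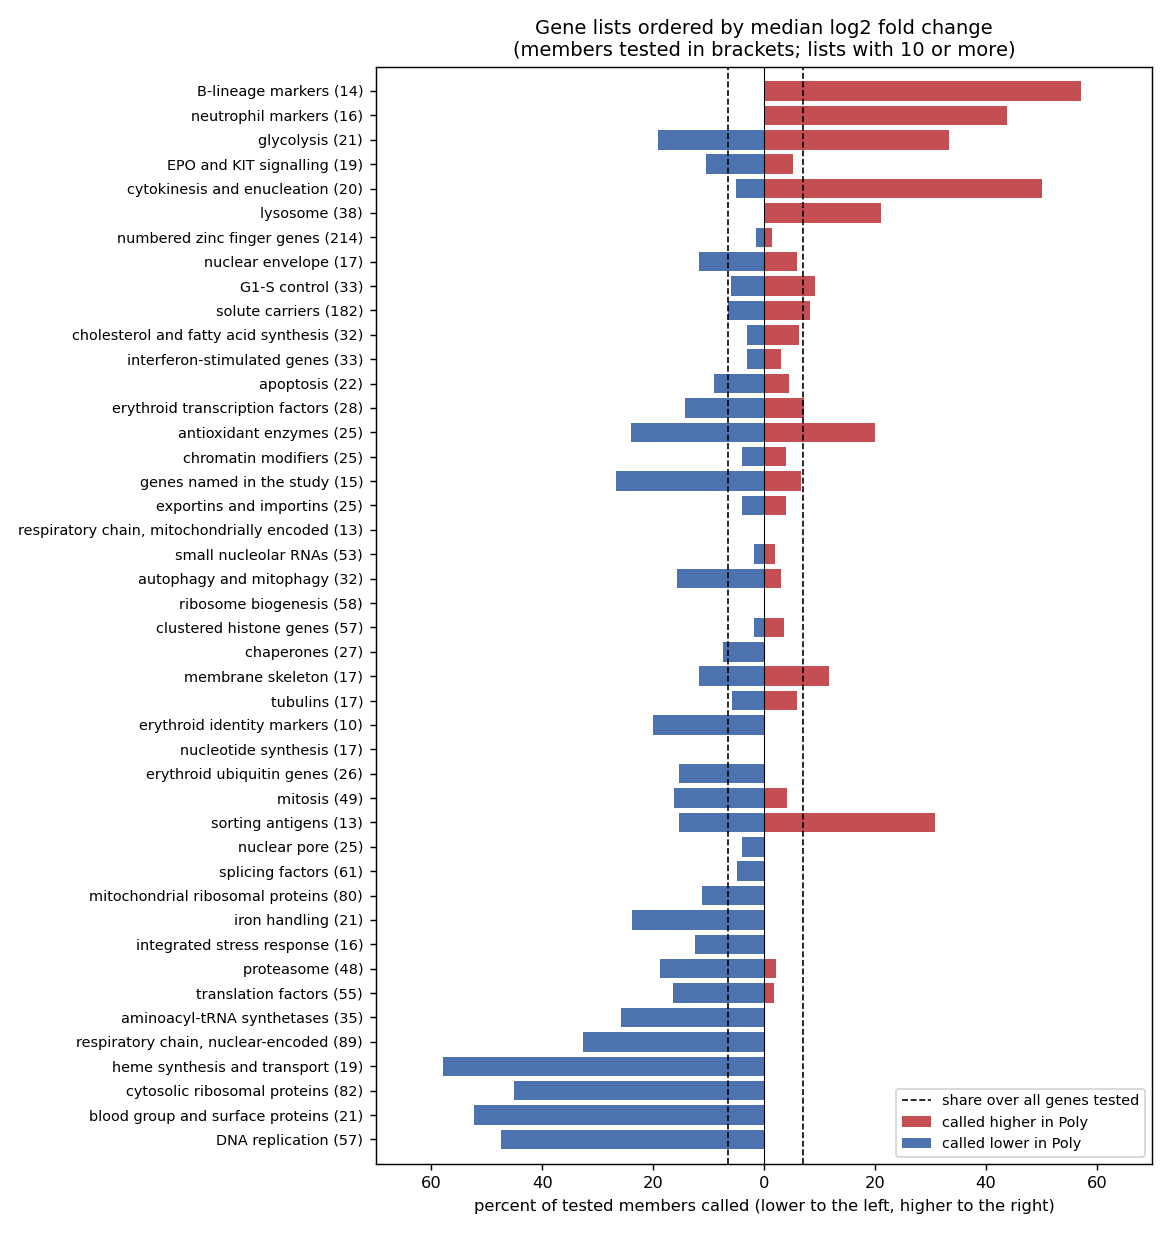
Percent of the tested members of each gene list called higher (red, to the right) or lower (blue, to the left) in Poly, for lists with at least 10 tested members ordered by median log2 fold change. Dashed lines mark the shares over all genes tested, 7.03% higher and 6.59% lower. Heme synthesis, blood group, DNA replication and cytosolic ribosomal protein genes extend to the left, and B-lineage, neutrophil and cytokinesis genes to the right.

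To see what set the step apart from its neighbours, the change from Baso to Poly was compared with the change from Poly to Ortho in a model of all 12 libraries. The difference of these changes draws on the Poly libraries on both sides, and 2 of the Ortho libraries carry only a general erythroblast label beside the stage in their titles. A negative difference (the later change below the earlier one) was called for 1301 genes (10.7%) and a positive one for 298 (2.45%). Genes that rose into Poly and then fell are described first. Mxd3 fell to 14.1 ± 0.943 FPKM in Ortho (SD, n = 3) from 76.9 ± 2.69 in Poly, and the difference of the changes was -3.22 (SE 0.16, adjusted p = 1.48e-06). For Plek2, which fell from 20.6 ± 1.82 to 3.33 ± 0.312 FPKM, it was -3.37 (SE 0.26, adjusted p = 1.06e-05), and for Cdkn2d, which fell from 210 ± 25.9 to 36.0 ± 10.1 FPKM, -3.37 (SE 0.41, adjusted p = 0.000199). These 3 genes were thus highest in Poly among the 4 stages. Fbxo5, the inhibitor of the anaphase-promoting complex EMI1, gave a difference of -2.42 (adjusted p = 6.72e-06), Esco2, a cohesin acetyltransferase, of -2.34 (adjusted p = 1.79e-05) and Ccp110, a centriolar protein, of -2.33 (adjusted p = 8.47e-06). Mpp2, a membrane scaffold protein, gave -2.45 (adjusted p = 5.81e-06), and E2f7, added after its values were seen, -1.84 (adjusted p = 7.48e-05). The differences of the 7 of these genes chosen by rule stayed called under the 3 scalings and the replicate block. The rule also named Ighv7-3, whose difference of -4.64 (adjusted p = 0.0456) was no longer called after centring on the median (adjusted p = 0.0629) or with hemoglobin genes left out (adjusted p = 0.0558), nor with pseudocounts of 0.1 (adjusted p = 0.0645) or 5 (adjusted p = 0.069). Xiap, an inhibitor of caspases, gave -2.47 (SE 0.62, adjusted p = 0.0212) and stayed called under all of these settings. The neutrophil marker sum was 18140 to 21478 FPKM in Poly and 16284 to 20246 in Ortho. For mast cell, basophil and eosinophil markers the sums were 1700 to 1992 and 1596 to 1777 FPKM. For macrophage markers they were 2506 to 2873 and 2932 to 3455 FPKM, and for B-lineage markers 504 to 543 and 545 to 598 FPKM. The part of other blood cells in the differences of the genes above was not tested.

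**Figure D5:**
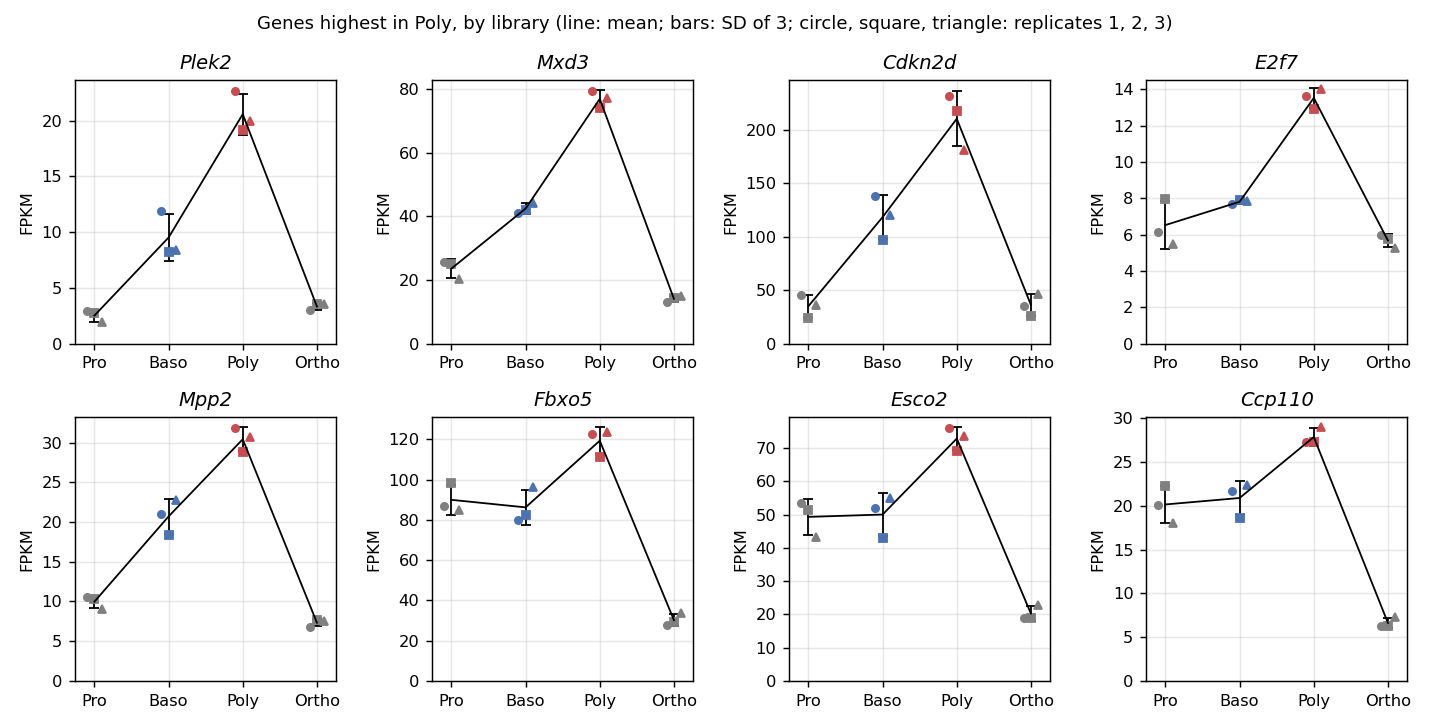
FPKM (vertical axes, linear from 0) of 8 genes in each library of the 4 stages (horizontal axes), with lines through the stage means, bars for the SD of 3 libraries and symbols for the replicate numbers. All 3 Poly libraries lie above every library of the other stages in each of the 8 genes. The genes were chosen for their changes into and out of Poly, and E2f7 after its values were seen, so the choice favoured such a peak.

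By list, the difference of the changes was called negative in 47 of 49 mitotic genes (44 to 47 under the 3 scalings and the replicate block, as in the ranges that follow), with a median change of -0.09 from Baso to Poly and of -1.58 from Poly to Ortho. It was called negative in 23 of 57 DNA replication genes (15 to 29) and in 17 of 33 G1 to S regulators (13 to 17). Over all genes tested this share was 10.7%. It was called positive in 12 of 26 ubiquitin genes of erythroid maturation (11 to 13) and in 8 of 32 autophagy and mitophagy genes (6 to 13), against 2.45%. The median change of the ubiquitin genes was 0.72 from Pro to Baso, -0.08 from Baso to Poly and 0.67 from Poly to Ortho, positive in both neighbouring steps. Txnrd2 and Cd59a, named here after their values were seen, fell into Poly and rose again to means of 95.2 and 10.9 FPKM in Ortho, with differences of 1.30 (adjusted p = 1.72e-05) and 1.90 (adjusted p = 0.00549). Ccdc92b, a coiled-coil protein gene chosen by rule, moved likewise, with 25.6, 21.03 and 19.5 FPKM in Baso, 15.4, 16.5 and 14.8 in Poly and a mean of 59.9 in Ortho (difference 2.34, SE 0.26, adjusted p = 9.44e-05).

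Compared with the preceding change from Pro to Baso, the difference was called positive in 2892 genes (23.8%) and negative in 735 (6.04%), a balance that was set by scaling, since it was 722 and 1392 after centring on the median and 1062 and 1100 with hemoglobin genes left out. Counts are therefore given with their range over the scalings and the replicate block. All 6 globin genes had a negative difference, also under each scaling that kept them, with a median change of 2.18 from Pro to Baso and of 0.07 from Baso to Poly. A negative difference was also called in 17 of 21 blood group and surface genes (15 to 17), 13 of 19 heme genes (10 to 14), 17 of 26 ubiquitin genes (15 to 18), 9 of 17 membrane skeleton genes (9 to 11) and 7 of 10 erythroid identity markers (7 to 9). The changes of these lists were thus lower at this step than at the one before. In the other direction, 53 of 58 ribosome biogenesis genes had a positive difference (41 to 55), with a median change of -1.20 from Pro to Baso and of -0.02 from Baso to Poly. So did 21 of 27 chaperones (15 to 21) and 14 of 17 nucleotide synthesis genes (9 to 15). Fn3k, a kinase that removes sugars from proteins, was higher in Baso than in the stages on either side, with means of 36.6 FPKM in Pro and 37.7 in Ortho, values of 108, 107 and 107 in Baso and of 74.6, 78.2 and 76.7 in Poly, and a difference of -2.04 (SE 0.25, adjusted p = 0.000428).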

How the data were processed

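Per the labels, RNA of sorted erythroblasts of 4 stages was sequenced in 12 libraries, 3 per stage, and the submitters' processing notes name cutadapt, Trimmomatic, HISAT2, SAMtools, featureCounts and build mm10. The authors deposited FPKM values per gene and library. The tool and annotation behind the FPKM are not given in the sources used here, and labels and methods name different library kits. FPKM are not counts, so no count test was used, and depth and counting error are unknown.

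Of 29839 lines, 1 repeated identifier was removed, leaving 29838 genes. 29750 were found in GENCODE M21, 21 symbols had been turned into dates and 48 stood on more than 1 identifier. Genes with at least 1 FPKM in at least 3 of the 6 Baso and Poly libraries were tested on log2(FPKM + 1), which understates changes of low genes, with limma 3.58.1 (variance trend, R 4.3.3) and Benjamini-Hochberg adjustment; a call is an adjusted p under 0.05. Neighbouring steps were compared in 1 model of all 12 libraries. Summaries used Python 3.11.15, and the scripts were tested on simulated data.

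Same-numbered Baso and Poly libraries deviated together from their stage means (correlations 0.249, 0.202 and 0.204, against -0.147 to -0.0494 for other pairs). The deviations from a stage mean cancel out for each gene, so the negative values of the other pairs are in part built in. All 3 were above 0.1, so the numbers were taken to pair the libraries. This rests on the values, since the labels name no shared source. The main calls (1658) did not use the pairing, and the block is given as an alternative (1905 calls, 1450 of them shared).

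Named genes were the study's list, the 15 largest called increases and decreases with separated libraries and a mean of at least 10 FPKM, up to 4 called members per list (or the 2 most abundant where fewer than 2 were called), and the 10 largest differences from each neighbouring step. Members and lists were chosen with earlier results of these data known. Alternatives were pseudocounts of 0.1 and 5, no filter, a mean of at least 5 FPKM, no variance trend, all 12 libraries, the replicate block, 3 rescalings, a 2-fold threshold and leaving out each library. Promoters came from RefSeq (GRCm38.p6), and windows on chromosome 18 were not used here. A few genes are not reported here.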

Additional observations from a re-analysis of the deposited data

How the results depend on the processing

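Without a filter on FPKM 591 genes were called (273 higher, 318 lower), and with a 2-fold threshold added 73 (16 higher, 57 lower). Leaving out 1 library gave 309 to 1492 calls (104 to 660 higher, 205 to 832 lower), with the lowest without Baso replicate 3. With the replicate number as a block, which uses the pairing of the libraries, 1905 genes were called (1049 higher, 856 lower), 1450 of them shared with the 1658. Against the Pro to Baso step, centring on the median gave 2114 called differences (722 positive, 1392 negative), leaving out hemoglobin genes 2162 (1062 positive), and leaving out 1 library 2101 to 3765 (1595 to 2974 positive), lowest without Baso replicate 1. Against the Poly to Ortho step, centring gave 452 positive and 741 negative differences, rescaling to the same sum 2126 negative, and leaving out 1 library 1058 to 1491 (195 to 281 positive, 859 to 1213 negative), lowest without Poly replicate 3 or, for negative ones, Poly replicate 1. The causes of these shifts were not tested. The balance of positive and negative differences against the Pro to Baso step thus turned after centring. No called gene changed direction under the 3 rescalings or in the 6 fits without 1 library, which the choice of called genes made likely beforehand. Of 210 named genes 185 were called, and 57 of these calls held in all 6 fits without 1 library. 106 calls were lost without the filter, 33 with all 12 libraries, 32 without the variance trend and 14 with the replicate block. Under the block the call of Il7r was gained. Since depth is unknown, no counting interval could be given for low genes.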

Other observations

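Of 182 solute carriers, 15 were called higher and 12 lower in Poly, against 7.03% and 6.59% of all genes tested. Slc12a4, a potassium chloride cotransporter of red cells, was at 11.7, 15.5 and 16.4 FPKM in Baso and at 6.36, 6.29 and 6.49 in Poly (limma log2 fold change -1.06, SE 0.13, adjusted p = 0.0075). Slc30a10, a manganese exporter, fell by 1.10 on the log2 scale and Slc39a8, an importer of zinc and manganese, by 1.03, while Slc25a21, a mitochondrial carrier, fell by 0.88. All 4 calls held whichever library was left out. The largest called increases, those of Slc15a4 (0.75), a transporter of lysosomes in immune cells, Slc2a9 (0.70), a urate transporter, and Slc11a1 (0.55), a metal transporter of phagocytes, moved with the leukocyte marker sums, whose part was not tested. The count of higher calls was 0 without Poly replicate 1 or Poly replicate 2 and 12 without Baso replicate 1.

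Of 214 numbered zinc finger genes, 3 were called higher and 3 lower, led by Zfp808 (log2 fold change -0.69). These are shares of 1.4% each, against 7.03% and 6.59% of all genes tested. The call of Zfp40 (0.50) was lost with the replicate block. Of 33 interferon-stimulated genes Bst2 was called higher (0.44) and Isg20 lower (-0.28), and of 32 genes of cholesterol and fatty acid synthesis Acly and Elovl5 were called higher (0.30 and 0.32) and Srebf2 lower (-0.32). In neither list did a share called reach that over all genes tested. Of 53 small nucleolar RNAs, Snord57 was at 0.136, 0.103 and 0.136 FPKM in Baso and at 2.50, 4.79 and 3.57 in Poly and Snord65 was called lower (-1.03). All Baso values of Snord57 were under 1 FPKM, so it met the filter only through the Poly libraries, where it was high. Its higher call is therefore not support for an increase. Exons of Snord57 overlap those of Nop56 on the same strand, and its call was lost with all 12 libraries in the model.

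Genes called higher had a median transcript length of 3432 bases, those called lower of 2517 and those not called of 3010. Their median mean FPKM was 15.9, 24.3 and 8.09.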
